A study of Mus musculus with 24 samples.

Results

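The proteasome is the protein machine that degrades ubiquitin-tagged proteins in the cytosol and nucleus, and the genes of its subunits and regulators were followed in the liver of mice fed an obesogenic diet. Members were all genes whose array name started with Psma, Psmb, Psmc, Psmd, Psme, Psmf or Psmg, without Psmb8, Psmb9 and Psmb10. The rule took 90 of 56605 probes and 46 of 37074 gene names. Of these, 83 probes for 45 genes passed the filter on dim probes (a signal well above background in 75% or more of the mice of some group) and could be tested. Psmb11, the thymus-type catalytic beta subunit, was well above background on 3 of 24 arrays and had no tested probe. Psmc3ip also carries a matching name, although its product acts in meiotic recombination and is no proteasome subunit. It is listed apart by role but counted among the 45 genes.

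Third-generation male C57bl/6J mice from 2 lineages were studied. The reference group (STD_Cont, 9 mice) came from the control lineage, whose diet was supplemented with high-oleic sunflower oil, and received a low-fat diet. The HFoleic group (HFD_Cont, 8 mice) came from the same lineage and received a high-fat, high-sucrose diet. The HFepa group (HFD_O3, 7 mice) came from a lineage whose diet held fish oil, rich in the n-3PUFA eicosapentaenoic acid (EPA), and received the high-fat, high-sucrose diet. All mice were killed while fasting, and without low-fat mice of the fish oil lineage a lineage difference under the low-fat diet cannot be told apart from the response to the diet.

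The catalytic 20S core is a barrel of outer alpha rings (Psma genes), which gate the entrance, and inner beta rings (Psmb genes), which carry the proteolytic sites. The 19S regulator binds ubiquitinated substrates, removes ubiquitin and unfolds the protein, with a base that holds the ATPases (Psmc genes) and a lid (Psmd genes). Other caps, the PA28 complexes (Psme1 to Psme3) and PA200 (Psme4), open the core without ubiquitin, Psmf1 (PI31) is known as an inhibitor of the core, and the Psmg genes with Psmd5, Psmd9 and Psmd10 encode assembly chaperones. In hepatocytes the proteasome clears misfolded and short-lived proteins, among them apolipoprotein B and regulators of lipid synthesis.

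The probes that carried the results below were 60 bases long, and the scanner files place them on build mm9. The brightest Psme3 probe (chr11:101184289-101184348, plus strand) holds a TG repeat. Bases 23 to 52 of that probe and bases 16 to 45 of the other tested Psme3 probe (within chr11:101178390-101178649, plus strand) are shown, with runs of alternating T and G in capitals.
Psme3, brightest probe: caTGTGTGTGTGTGttcGTGTGTGTGTGTt
Psme3, other tested probe: tcaaggttgattctttcagagagcggatca
In the brightest probe, 46 of 60 bases lay in runs of TG, CA, GT or AC, against 4 in the other probe. Runs were counted from a length of 4 bases, and TG could mix with CA and GT with AC. The first 30 bases of the brightest probes of Psme2b (chr11:48758875-48758934, minus strand) and Psmd9 (chr5:123691881-123691940, plus strand), which gave the largest rise and the largest fall outside Psme3, were as follows.
Psme2b: cccgaagggtgaagaaaagccatcgatgta
Psmd9: tgaacacccaaaacttccagtcagtgcaga
Both Psme2b probes list transcripts of Psme2 as well as of Psme2b, and no probe was named for Psme2. Psme2b therefore stands for the near-identical pair of PA28 beta genes, whose signals cannot be told apart here.

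In liver of HFoleic mice, 7 of 45 proteasome genes differed from reference mice (limma, adjusted p under 0.05 over all 30003 tested probes), 4 higher and 3 lower, whereas 8.07% of all 20192 tested genes did (4.52% higher and 3.55% lower). Higher were the alpha ring genes Psma1, Psma3 and Psma4 and the activator Psme2b, and lower were the assembly chaperone Psmd9, the inhibitor Psmf1 and the activator Psme3. All values are log2 normalized signal of 1 probe per gene, the brightest tested one, and differences are on the log2 scale with the standard error. The median difference over the 45 members was 0.06, against −0.01 over all tested genes. Mouse by mouse, the median deviation of the members from the reference mean ran from −0.13 to 0.11 in reference mice (SD 0.0713). It ran from −0.01 to 0.09 in HFoleic and from −0.01 to 0.10 in HFepa mice, all within the reference range. Above 0 lay 27 of 45 members, against 9775 of 20192 tested genes. Without Psmc3ip, 7 of 44 genes were called and 26 lay above 0. No member passed in HFepa against reference (0 of 45, against 0.391% of all genes) or in HFepa against HFoleic (0 of 45, against 0%). At an unadjusted limma p under 0.05 lay 8 of 45 members in HFepa against reference, beside 2827 of 20192 tested genes. For HFepa against HFoleic this held for 4 of 45, beside 2012 of 20192. By the methods' t-test the counts of called members in the 3 comparisons were 8, 0 and 0. The comparisons with the reference share the reference mice.

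**Figure D1:**
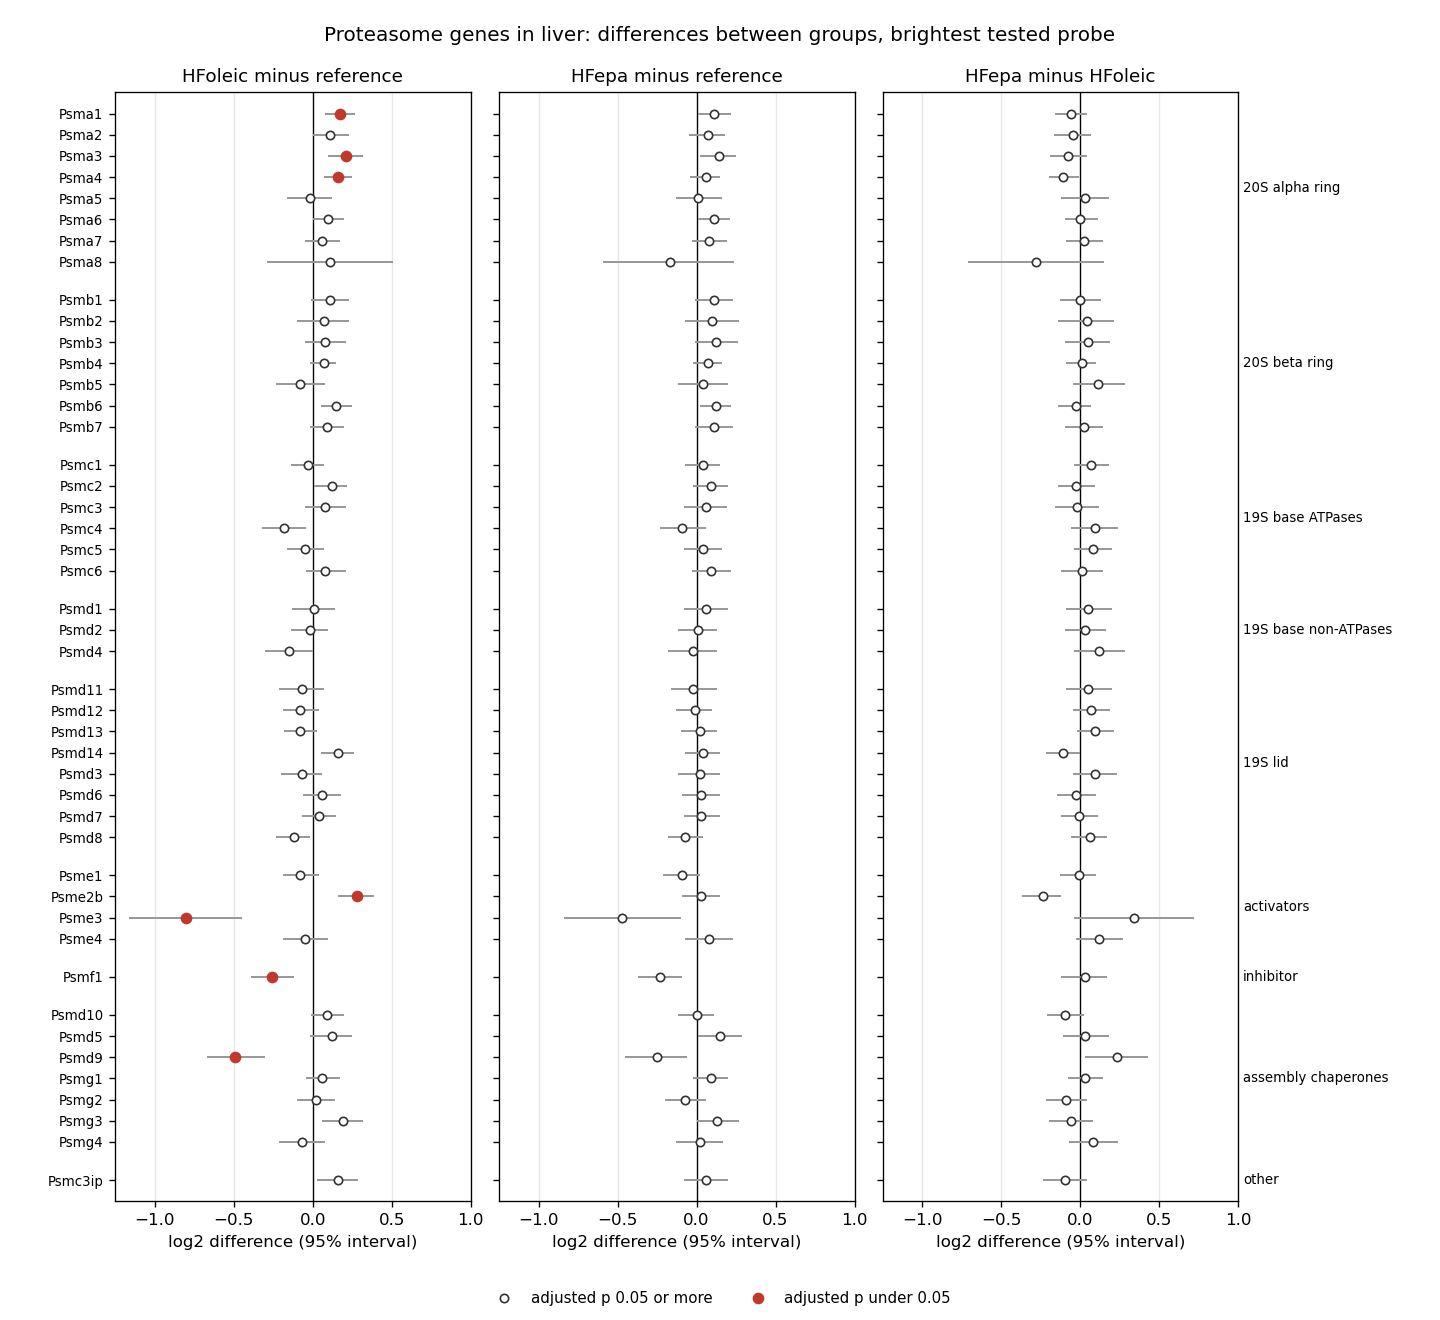
Log2 differences of the 45 tested proteasome genes, grouped by role, in the 3 comparisons, with points for the estimate and lines for the 95% interval of the limma fit. Filled red points passed an adjusted p of 0.05: 7 genes in HFoleic minus reference, from −0.80 for Psme3 to 0.28 for Psme2b, and none in the other panels.

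For 34 of 45 genes in HFoleic against reference, 38 in HFepa against reference and 38 in HFepa against HFoleic, the 95% interval of the difference lay within 1.2-fold in either direction (0.26 on the log2 scale). Over all 20192 tested genes this held for 8419, 8899 and 8703. The median standard error of a member difference was 0.06, against 0.09 over all tested genes. In bulk liver, fewer cells of a type and less RNA per cell cannot be told apart in any of these differences.

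In the 20S core, 3 of 15 tested genes rose in HFoleic liver and none fell, against 4.52% higher and 3.55% lower of all tested genes. Of the 15 differences, 13 lay above 0, against 9775 of 20192 tested genes, with a core median of 0.10. All 3 called genes belonged to the alpha ring. Psma3 ranged from 14.05 over a median of 14.24 to 14.35 in reference mice, from 14.33 over 14.42 to 14.56 in HFoleic mice and from 14.19 over 14.37 to 14.51 in HFepa mice. Thus 7 of 8 HFoleic mice lay above every reference mouse, and HFepa mice overlapped both groups. Psma3 was higher by 0.21 ± 0.05 in HFoleic (adjusted p = 0.0145) and its difference in HFepa was 0.14 ± 0.05 (adjusted p = 0.267). The other Psma3 probes gave 0.05 (adjusted p = 0.531) and 0.00 (adjusted p = 0.999), so the rise was seen with 1 of 3 probes. The probe at 0.00 was the dimmest, at a mean of 8.73 in reference mice, and lists no RefSeq transcript.

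Psma1 ranged from 12.84 over 13.02 to 13.13 in reference mice, from 13.10 over 13.18 to 13.32 in HFoleic mice and from 13.03 over 13.13 to 13.22 in HFepa mice. Again 7 of 8 HFoleic mice exceeded the highest reference mouse. The difference was 0.17 ± 0.05 in HFoleic (adjusted p = 0.0246) and 0.11 ± 0.05 in HFepa (adjusted p = 0.306). Psma4 ranged from 14.21 over 14.27 to 14.43, from 14.37 over 14.44 to 14.53 and from 14.26 over 14.34 to 14.46 in the same order of groups. Of the HFoleic mice, 5 of 8 lay above every reference mouse, and the difference was 0.16 ± 0.04 (adjusted p = 0.0212). In HFepa it was 0.06 ± 0.04 (adjusted p = 0.649), and HFepa against HFoleic gave −0.11 ± 0.05 (adjusted p = 0.448). The 3 dimmer Psma4 probes gave 0.10, 0.11 and 0.12 in HFoleic, all above 0, with adjusted p = 0.434, 0.233 and 0.193. The call of Psma1 was lost without HFoleic replicate 1 (adjusted p = 0.0573) and that of Psma4 without HFoleic replicate 8 (adjusted p = 0.0501). When median signals were scaled to the 75th percentile instead of quantile normalized, Psma1 (0.17, adjusted p = 0.0558), Psma3 (0.17, adjusted p = 0.0935) and Psma4 (0.13, adjusted p = 0.119) no longer passed.

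Among the other alpha ring genes, the differences in HFoleic were 0.11 for Psma2, 0.10 for Psma6, 0.06 for Psma7 and −0.02 for Psma5, none past the test. The second Psma6 probe gave 0.02. Psma8, the testis-type alternative to Psma7, was dim in liver, at a mean of 7.30 in reference mice, and its difference of 0.11 ± 0.20 was the least precise of all members. In HFepa its difference from reference was −0.17 and from HFoleic −0.28, the lowest value of the alpha ring in both comparisons (adjusted p = 0.782 and 0.689).

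No beta ring gene passed in any comparison by the limma test. Of the catalytic subunits, Psmb6 (caspase-like site) came nearest, with 14.44 over 14.54 to 14.68 in reference mice, 14.56 over 14.70 to 14.82 in HFoleic mice and 14.55 over 14.68 to 14.75 in HFepa mice. All 8 HFoleic and all 7 HFepa mice were above the reference mean, with differences of 0.15 ± 0.05 (adjusted p = 0.0585) and 0.12 ± 0.05 (adjusted p = 0.289). Psmb6 was called in HFoleic by the methods' t-test, with normexp background correction and without reference replicate 6, reference replicate 8 or HFoleic replicate 6. Psmb5, which carries the chymotrypsin-like site, differed by −0.08 ± 0.08 in HFoleic and 0.04 ± 0.08 in HFepa. Psmb7, with the trypsin-like site, differed by 0.09 ± 0.05 and 0.11 ± 0.06. The structural subunits Psmb1, Psmb2, Psmb3 and Psmb4 differed by 0.07 to 0.11 in HFoleic and by 0.07 to 0.12 in HFepa. In HFepa all 7 beta ring genes lay above the reference, against 10151 of 20192 tested genes, with a beta ring median of 0.11. The 7 genes were read in the same mice, so they are not independent. By slide, their differences ran from 0.11 to 0.29 on slide 1, from −0.15 to 0.06 on slide 2 and from 0.03 to 0.21 on slide 3. In HFepa against HFoleic the highest value was 0.11 for Psmb5 (adjusted p = 0.671). Dimmer probes gave −0.04 and 0.10 for Psmb2, 0.01 for Psmb4 and 0.09 for Psmb6 in HFoleic against reference. In HFepa against reference the same probes gave 0.04, 0.11, 0.11 and 0.12.

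**Figure D2:**
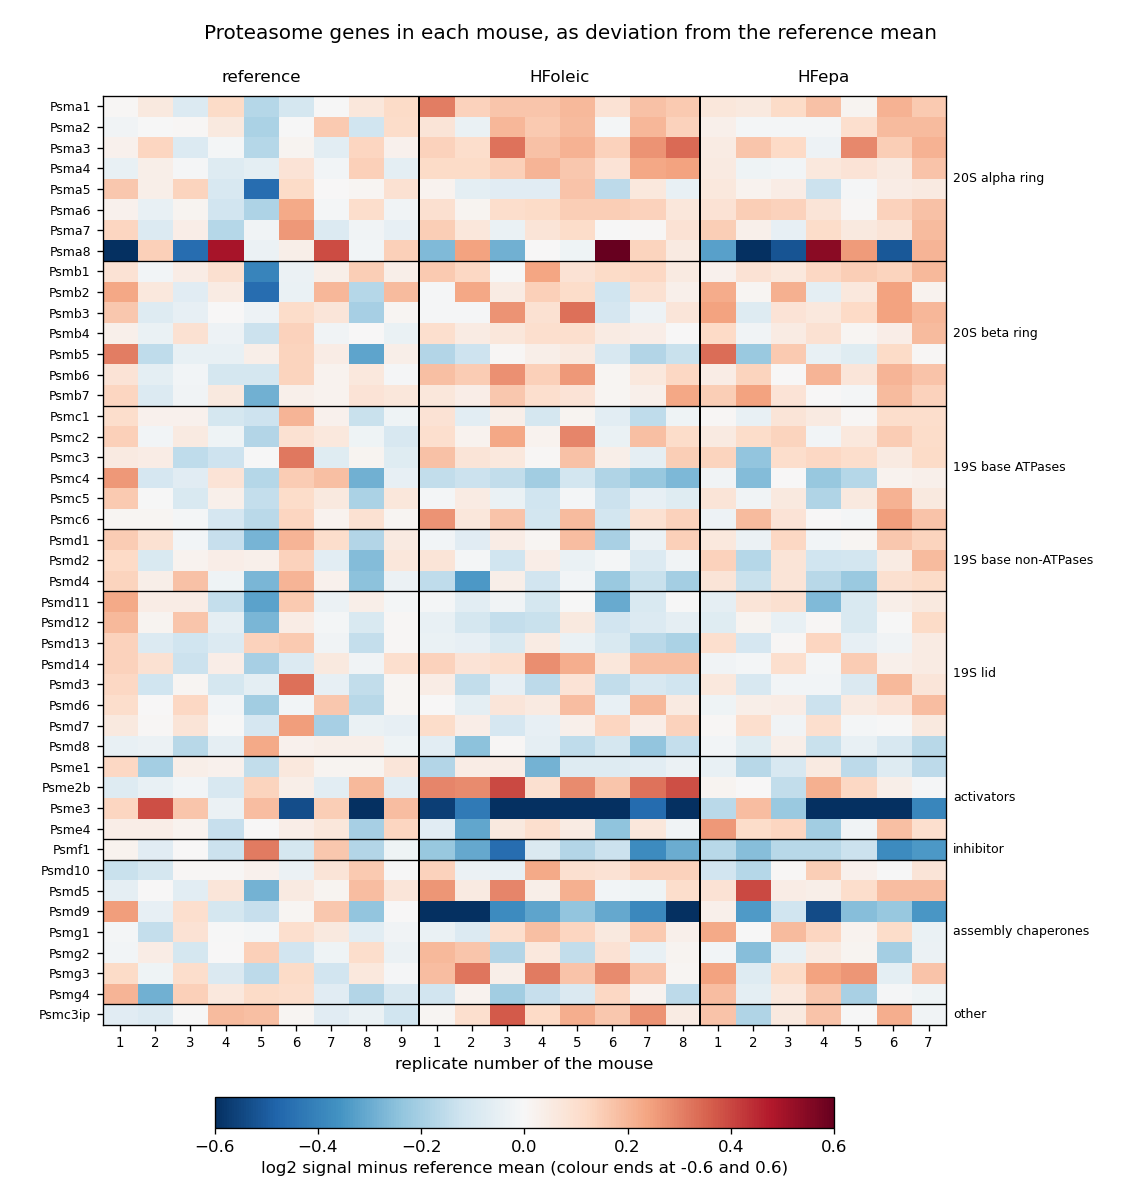
Deviation of each proteasome gene from its mean in reference mice, as log2 signal, with 1 column per mouse (9 reference, 8 HFoleic, 7 HFepa) and genes grouped by role. Psma1, Psma3, Psma4 and Psme2b are red in all 8 HFoleic mice, Psmd9 and Psmf1 are blue in all 8, and reference replicate 5 is blue across most core and 19S genes.

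The 19S regulator gave 0 calls among 17 tested genes in each comparison, beside 8.07%, 0.391% and 0% of all tested genes. At an unadjusted limma p under 0.05 lay 4 of 17 in HFoleic, 0 in HFepa against reference and 1 in HFepa against HFoleic. Of all 20192 tested genes, 4504, 2827 and 2012 did so in the same order. The methods' t-test also called none of the 17 genes in any comparison. Under other settings, Psmd14 was called in HFoleic with normexp background correction, with the row of the slide as a block and without reference replicate 1, and Psmc4 without reference replicate 8. In HFoleic 7 differences lay above 0 and 10 below, with a median of −0.03, beside the median of 0.10 for the core, and no test of the gap between these 2 parts was run. Psmd14, the deubiquitinase of the lid, was highest, with 11.61 over 11.85 to 11.95 in reference mice, 11.88 over 11.97 to 12.09 in HFoleic mice and 11.79 over 11.84 to 11.96 in HFepa mice. All 8 HFoleic mice lay above the reference mean and 5 above every reference mouse, with a difference of 0.16 ± 0.05 (adjusted p = 0.062). Its second probe gave 0.19 (adjusted p = 0.106). In HFepa against HFoleic, Psmd14 differed by −0.11 ± 0.05 (adjusted p = 0.506).

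In the base, the ATPase Psmc4 was the lowest in HFoleic, at −0.18 ± 0.07 (adjusted p = 0.116), with all 8 HFoleic mice below the reference mean. Psmc2 was the highest, at 0.12 ± 0.05 (adjusted p = 0.197). Psmd4, the ubiquitin receptor, differed by −0.15 ± 0.07 (adjusted p = 0.254), and the scaffold subunits Psmd1 and Psmd2 by 0.01 and −0.02. Psmd8 was the lowest lid gene, at −0.12 ± 0.05 (adjusted p = 0.154). In HFepa the 17 differences from reference ran from −0.09 for Psmc4 to 0.09 for Psmc2 and Psmc6, and all 17 intervals lay within 1.2-fold.

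Of the activators, Psme2b rose in HFoleic liver. Its signal, shared with Psme2, ranged from 13.94 over 13.99 to 14.23 in reference mice, from 14.13 over 14.32 to 14.43 in HFoleic mice and from 13.89 over 14.05 to 14.25 in HFepa mice. HFoleic mice stood apart in 6 of 8 cases, whereas HFepa mice covered the reference range. The difference was 0.28 ± 0.06 in HFoleic (adjusted p = 0.00423) and 0.03 ± 0.06 in HFepa (adjusted p = 0.87). Between the high-fat groups it was −0.24 ± 0.06, the member difference with the smallest p in that comparison, and it did not pass (adjusted p = 0.183). The second probe gave 0.16 in HFoleic (adjusted p = 0.0818). Psme1, which encodes the alpha partner in the same cap, differed by −0.08 ± 0.05 in HFoleic and −0.09 ± 0.06 in HFepa. Psme4 (PA200) differed by −0.05 ± 0.07 and 0.08 ± 0.07.

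**Figure D3:**
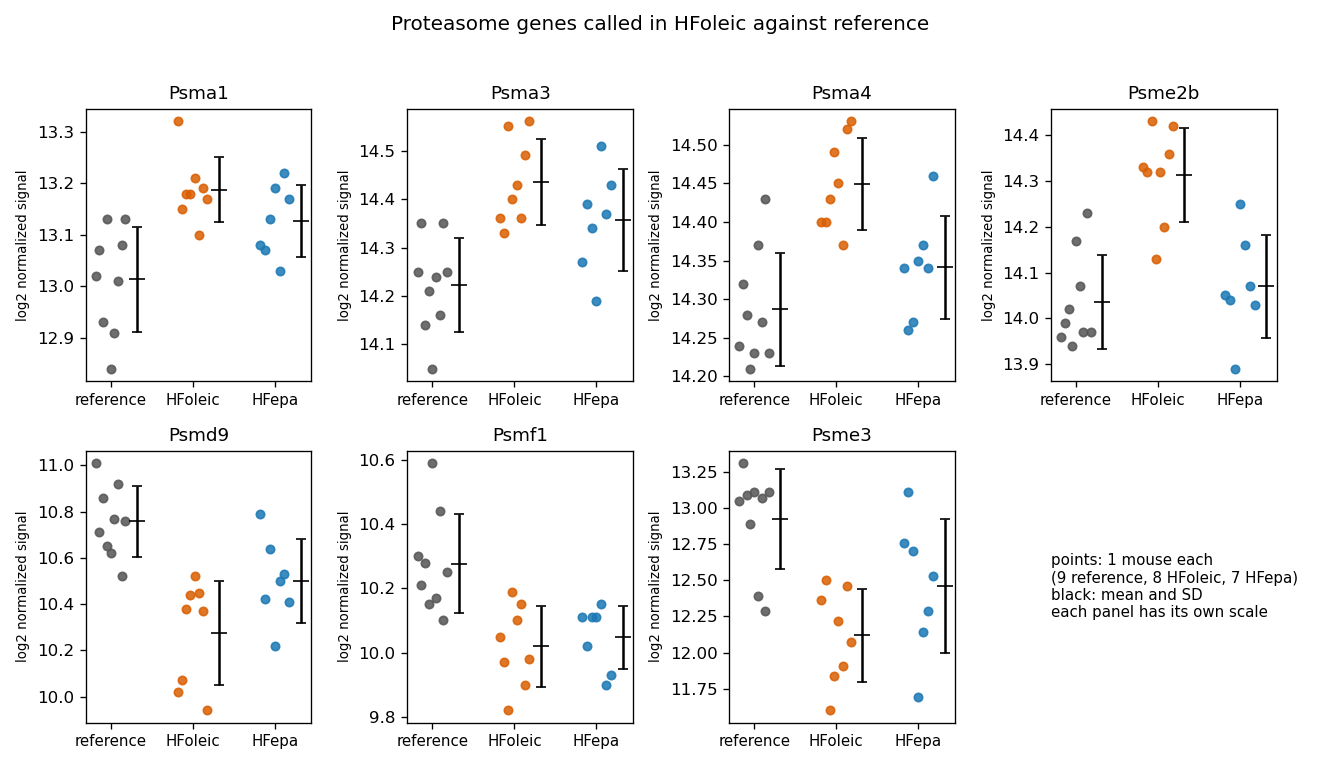
Log2 normalized signal of the 7 proteasome genes called in HFoleic against reference, 1 point per mouse, with the mean and SD in black and a separate scale per panel. Psmd9 is the only panel without overlap between HFoleic (9.94 to 10.52) and reference (10.52 to 11.01) beyond rounding.

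Psme3 encodes PA28 gamma, the nuclear cap. Its brightest probe ranged from 12.29 over 13.07 to 13.31 in reference mice, from 11.60 over 12.15 to 12.50 in HFoleic mice and from 11.69 over 12.53 to 13.11 in HFepa mice. The difference was −0.80 ± 0.17 in HFoleic (adjusted p = 0.00602) and −0.47 ± 0.18 in HFepa (adjusted p = 0.239), and HFepa lay 0.34 ± 0.18 above HFoleic (adjusted p = 0.571). The other Psme3 probe, which holds no such repeat, gave 0.06 in HFoleic (adjusted p = 0.754) and 0.11 in HFepa (adjusted p = 0.636). The fall of Psme3 was therefore seen with 1 of 2 probes, and read from the other probe the count of proteasome genes in HFoleic is 6 (4 higher and 2 lower). The other probe was dimmer, at a mean of 8.24 in reference mice against 12.92, and lists no RefSeq transcript. The 2 probes are therefore not equal readings of the gene.

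The TG repeat shown above is shared with probes of unrelated genes. After the Psme3 values had been seen, the other tested probes with at least 5 TG units in a row (150 probes for 150 gene names, none of them a proteasome gene) were set beside it. Of these, 110 were called lower and 1 higher in HFoleic, with a median difference of −0.54, and their 10th and 90th percentiles were −0.78 and −0.10. Of 88 probes with the complementary CA repeat, 37 were called higher and 1 lower, with a median of 0.18. Over all tested probes 7.23% were called (4.05% higher and 3.19% lower), and the median was 0.00.

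Array by array, the Psme3 probe followed the mean of these 150 probes within every group. Pearson's r was 0.98 in reference mice (n = 9, exact permutation p = 7.16e-05, adjusted p = 0.00043), 0.92 in HFoleic mice (n = 8, exact permutation p = 0.00258, adjusted p = 0.00516) and 0.96 in HFepa mice (n = 7, exact permutation p = 0.00159, adjusted p = 0.00476), two-sided and adjusted over 6 relations. Spearman's rho was 0.92, 0.86 and 0.93 (n = 9, 8 and 7, exact permutation p = 0.00131, 0.0107 and 0.00675, adjusted p = 0.00787, 0.0214 and 0.0202). Without the 2 arrays farthest from the median, r was 0.88, 0.96 and 0.79. For the other Psme3 probe, r was −0.42, 0.10 and 0.45 and rho −0.45, 0.10 and 0.39 (exact permutation p from 0.23 to 0.84, n from 7 to 9, adjusted p from 0.345 to 0.84), and without the 2 farthest arrays r was −0.08, −0.28 and 0.19. The mean of the 150 probes ran from 12.57 to 13.20 in reference mice, from 12.17 to 12.63 in HFoleic mice and from 12.10 to 12.96 in HFepa mice. The part of the repeat in the Psme3 difference was not tested beyond these values. No other tested member probe held 5 TG or CA units in a row.

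**Figure D4:**
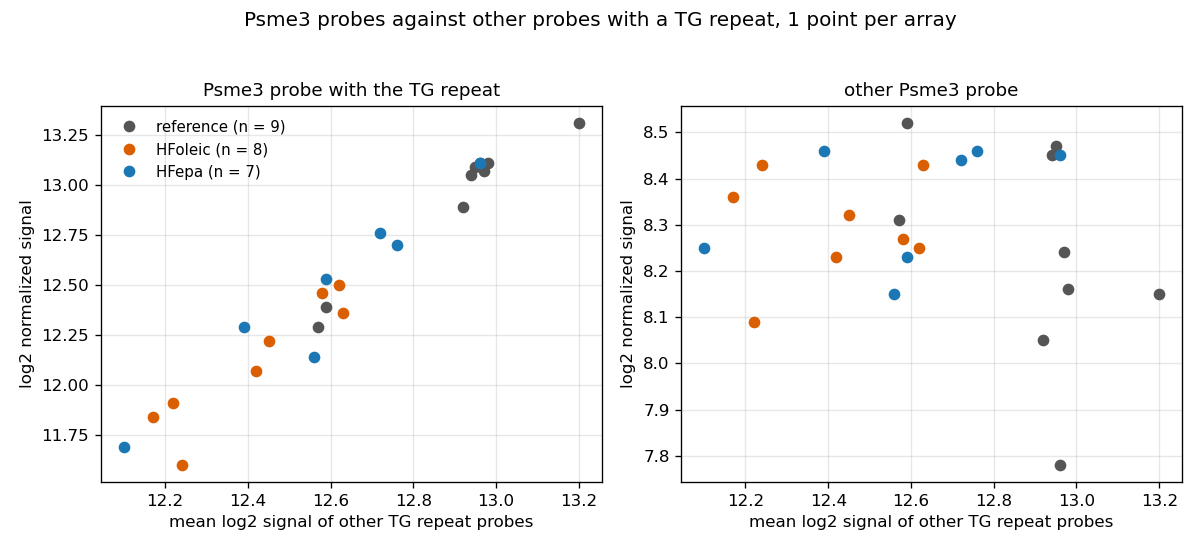
Log2 signal of the Psme3 probe with the TG repeat (left) and of the other Psme3 probe (right) against the mean log2 signal of 150 other probes with a TG repeat, 1 point per array, coloured by group. The left points rise along 1 line through all 3 groups (r from 0.92 to 0.98 within groups), and the right points do not (r from −0.42 to 0.45).

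The inhibitor Psmf1 fell in HFoleic liver. It ranged from 10.10 over 10.25 to 10.59 in reference mice, from 9.82 over 10.01 to 10.19 in HFoleic mice and from 9.90 over 10.11 to 10.15 in HFepa mice. Below every reference mouse lay 5 of 8 HFoleic and 3 of 7 HFepa mice. The difference was −0.26 ± 0.07 in HFoleic (adjusted p = 0.0177) and −0.23 ± 0.07 in HFepa, where it had the smallest p of all members and did not pass (adjusted p = 0.122). The high-fat groups differed by 0.03 ± 0.07, with an interval from −0.12 to 0.17. The second probe gave −0.16 in HFoleic (adjusted p = 0.191).

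Psmd9 (p27), a chaperone in the assembly of the 19S base, had the smallest adjusted p of all members. It ranged from 10.52 over 10.76 to 11.01 in reference mice, from 9.94 over 10.37 to 10.52 in HFoleic mice and from 10.22 over 10.50 to 10.79 in HFepa mice. All 8 HFoleic mice lay below every reference mouse, and 4 of 7 HFepa mice lay below the reference range. The difference was −0.49 ± 0.09 in HFoleic, a ratio of 0.714 (adjusted p = 0.00237), and −0.25 ± 0.09 in HFepa (adjusted p = 0.212). From HFoleic to HFepa it was 0.23 ± 0.10 (adjusted p = 0.43). Only 1 probe read Psmd9, so a second probe could not be compared. Of its 60 bases, 20 lay in runs of TG, CA, GT or AC, against 46 in the brightest Psme3 probe and 4 in that of Psme2b. Such a run could be as short as 4 bases, and the Psmd9 probe held no 5 TG or CA units in a row. The part of these runs in the Psmd9 difference was not tested.

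The other assembly chaperones did not pass. Psmg3, part of the pair that helps build the alpha ring with Psmg4, differed by 0.19 ± 0.06 in HFoleic (adjusted p = 0.0719), with all 8 mice above the reference mean and 6 above every reference mouse. The second Psmg3 probe gave −0.03. That probe was dimmer, at a mean of 8.01 in reference mice against 10.54, and lists no RefSeq transcript. Psmg4 differed by −0.07 ± 0.07. Psmd5 was the highest of the group in HFepa, at 0.15 ± 0.07 (adjusted p = 0.329), and Psmd10 (gankyrin), Psmg1 and Psmg2 differed by 0.02 to 0.09 in HFoleic. Psmc3ip differed by 0.16 ± 0.06 in HFoleic (adjusted p = 0.126).

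The arrays lay on 3 slides, each with all groups, and in 2 rows of a slide. In HFoleic against reference, the differences on slides 1, 2 and 3 were 0.24, 0.17 and 0.11 for Psma1, 0.22, 0.25 and 0.19 for Psma3, and 0.14, 0.21 and 0.15 for Psma4. Psme2b gave 0.32, 0.37 and 0.17. Psmd9 gave −0.59, −0.61 and −0.26, Psmf1 −0.47, −0.20 and −0.10, and Psme3 −1.01, −0.70 and −0.69. All 7 genes kept their direction on every slide, and the sizes of Psmd9 and Psmf1 varied most. The genes were called in the fit over these same arrays, so the shared direction is no independent check. Reference replicate 5 stood apart, with 11 of 45 members above the reference mean and a median deviation of −0.13, against −0.03 to 0.11 in the other reference mice. Without it the same 7 genes were called.

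The genes that work beside the members were read from fixed lists. Pomp, the maturation factor that brings the beta subunits into the nascent core, rose in HFoleic from 14.57 over 14.76 to 14.86 in reference mice to 14.89 over 14.97 to 15.08, with all 8 mice above every reference mouse. The difference was 0.25 ± 0.05 (adjusted p = 0.00663), and in HFepa it was 0.09 ± 0.06 (adjusted p = 0.546). With processed signals scaled to the 75th percentile, the difference in HFoleic was 0.16 (adjusted p = 0.044). Adrm1 and Shfm1, which are 19S subunits under other names, did not pass, so 1 of 3 genes of that list rose. Of the 3 immunoproteasome genes, which replace catalytic subunits under interferon, Psmb10 rose in HFoleic by 0.46 ± 0.12 (adjusted p = 0.0154), with 12.35 over 12.62 to 13.03 in reference mice and 12.61 over 13.12 to 13.46 in HFoleic mice. Psmb9 differed by 0.30 ± 0.17 (adjusted p = 0.322) and Psmb8 by 0.09 ± 0.10 (adjusted p = 0.684), and in HFepa the 3 genes differed from reference by −0.16 to 0.23 without passing. In HFepa against HFoleic the 3 genes differed by −0.46 to −0.16, and none passed.

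Of 8 interferon response genes, Irf1 alone was called in HFoleic (0.44 ± 0.13, adjusted p = 0.0333). The median difference of the list was 0.12, with Irf7 at −0.32, and the mean of the list ran from 10.08 to 10.53 in reference mice, from 10.19 to 10.79 in HFoleic mice and from 9.70 to 11.05 in HFepa mice. In HFepa against HFoleic all 8 lay below 0, against 9709 of 20192 tested genes, with a list median of −0.36. None of the 8 was called there. Macrophage markers (0 of 7 called, mean level 10.48 to 11.66 against 10.76 to 11.62) and B cell markers (0 of 3, 6.68 to 7.98 against 6.86 to 7.80) overlapped between reference and HFoleic. So did T and NK cell markers, of which Cd4 was lower (1 of 5 called, 8.55 to 9.25 against 8.24 to 9.10), and blood markers (0 of 5, 10.88 to 11.67 against 11.06 to 11.60). In HFepa all 7 macrophage markers lay above 0, with a median of 0.25 against reference and 0.10 against HFoleic. All 5 T and NK cell markers lay above 0 in HFepa against HFoleic (median 0.07). Against reference, and for B cell and blood markers in both HFepa comparisons, the signs were mixed. None of these markers was called in either HFepa comparison. Hepatocyte markers marked the tissue, with Alb at a mean of 18.26 in every group, although 2 of 8 were lower in HFoleic (Cps1 by −0.89 and Tat by −0.63) and the mean of that list ran from 16.35 to 16.61 in reference mice and from 16.23 to 16.46 in HFoleic mice. Of 5 stellate cell markers, Lrat alone was called in HFoleic, at 0.56. In the whole list 2 differences lay above 0 and 3 below, with a median of −0.09. The mean level of that list overlapped, at 8.34 to 10.53 in reference mice and 8.54 to 9.08 in HFoleic mice. The part of these genes in the proteasome differences was not tested.

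Of 6 genes for ubiquitin and its activation, 1 was called. Ubb, a polyubiquitin gene, was higher in HFepa against reference by 0.24 ± 0.05 (adjusted p = 0.0344), with 16.59 over 16.80 to 16.92 in reference mice and 16.93 over 17.00 to 17.06 in HFepa mice. All 7 HFepa mice lay above every reference mouse, but the call was lost under 16 alternative settings, among them leaving out HFepa replicate 1, 2, 4, 5, 6 or 7 or reference replicate 1, 2, 4, 5 or 7 (adjusted p from 0.0523 to 0.0831). In HFoleic Ubb differed by 0.10 (adjusted p = 0.223). None of 9 genes for proteasome-bound enzymes and ubiquitin shuttles was called in any comparison, and none of 5 for the transcription factors of proteasome genes and their processing. The factor Nfe2l1 differed by 0.06 in HFoleic and 0.11 in HFepa, and Nfe2l2 by 0.15 (adjusted p = 0.354) and 0.33 (adjusted p = 0.0997).

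Promoters from RefSeq on build GRCm38.p6, 250 bases before to 50 after the start site, were matched by symbol for 37 members with 39 promoters. The core of the antioxidant response element, which Nfe2l1 and Nfe2l2 bind (TGACNNNGC on either strand), was found in 6 of 39 (15.4%), against 12.4% of all 32851 promoters of this length. The CCAAT box, read by NF-Y (CCAAT on either strand), was found in 13 of 39 (33.3%), against 37.4%. The stretches below show these letters in capitals in genes described above, each 60 bases long and ending before the start site.
Psma1 (CCAAT, chr7:114276187-114276246, minus strand): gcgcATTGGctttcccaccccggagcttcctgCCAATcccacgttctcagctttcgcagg
Psma3 (CCAAT, chr12:70974463-70974522, plus strand): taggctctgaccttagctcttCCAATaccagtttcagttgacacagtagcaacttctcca
Psmb6 (TGACNNNGC, chr11:70525297-70525356, plus strand): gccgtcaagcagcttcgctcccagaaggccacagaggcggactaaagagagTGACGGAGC
Psmd9 (TGACNNNGC, chr5:123228130-123228189, plus strand): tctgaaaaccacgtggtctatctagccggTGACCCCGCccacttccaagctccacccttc
A match describes letters in these windows and no binding.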

How the data were processed

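Liver RNA of 24 mice was hybridised to 1-colour (Cy3) Agilent Sureprint G3 Mouse GE v2 arrays, 1 per mouse. The authors deposited scanner output (Agilent Feature Extraction 10.10.1.1, per the submitters' processing notes), in which spot signals are intensity values without normalization per the file headers, and a table of 32176 probes with log2 median signal that the authors had filtered and quantile normalized. The software's outlier and background marks are scores of 0 or 1 per the file headers.

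Log2 median signals were averaged over the spots of a probe without outlier spots (134 to 627 per array). The 30003 probes marked above background in 75% or more of the mice of some group were quantile normalized and fitted with limma 3.58.1 (R 4.3.3, the data.table package, version 1.17.8) as a group-means model over all 24 arrays. Tests were two-sided, with Benjamini-Hochberg adjustment over all tested probes and calls at an adjusted p under 0.05. A gene was read from its tested probe with the highest mean signal. Each array had 28804 to 34432 probes well above background, 0 saturated spots and a median signal of 59.5 to 89, and arrays of a group correlated at 0.974 to 0.996. Their number limits the precision, and separate mice were the replicates. Within the deposited table, 83 member probes for 45 genes were present, and member differences from it were within 0.00307 of those given.

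Slide and row were read from the arrays' positions. Named were members called in any comparison, the 5 with the smallest p in each, the extremes of each role group, members whose probes disagree and members without a tested probe. Members and lists were chosen with earlier results of these data known. Alternatives covered filter, background correction, scaling, deposited values, slide, row, replicate block, t-test, probe choice and leaving out each array. The fit was tested on simulated data. Sequences were handled in Python 3.11.15 (numpy 2.4.6, scipy 1.17.1, pandas 2.3.3), and figures drawn with matplotlib 3.10.9. Transcript accessions of probes were matched to the RefSeq gene table of GRCm38.p6 for names only, since the probes lie on mm9. The values of 1 listed gene are not reported here.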

Additional observations from a re-analysis of the deposited data

Results flagged for a closer look

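In 9 of 135 groups of values (45 members in 3 groups), the highest or lowest mouse stood apart from the rest by more than Dixon's 95% limit, where chance gives about 1 in 20 groups. Of these, 3 were low values of reference replicate 5: Psma5 at 13.0 (next lowest 13.36), Psmb1 at 12.1 (12.46) and Psmb7 at 11.84 (12.05). HFepa replicate 2 was low for Psmc3, at 14.67 against 14.96, and high for Psmd5, at 10.24 against 10.03. HFoleic replicate 6 was high for the dim gene Psma8, at 8.31 against 7.54, and low for Psmd11, at 10.82 against 11.02. HFepa replicate 4 was low for Psma5, at 13.33 against 13.45, and reference replicate 6 was high for Psmc3, at 15.22 against 14.96. None of these genes was called in any comparison.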

How the results depend on the processing

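The count of proteasome genes called in HFoleic against reference (7, of which 4 higher and 3 lower) was 4 (1 higher and 3 lower) with median signals scaled to the 75th percentile, 5 (2 and 3) without the filter on dim probes, 6 (3 and 3) with processed signals scaled to the 75th percentile and 9 (6 and 3) after normexp background correction. It was 7 with the deposited values, with slide as a block and with any tested probe of a gene, and 8 with row as a block and by the methods' t-test. Leaving out single arrays gave 6 to 9, and 0 to 0 in both HFepa comparisons, which stayed at 0 under every alternative run. Psmd9, Psme2b and Psmf1 were called under every alternative of the fit, with differences from −0.52 to −0.44, 0.22 to 0.30 and −0.28 to −0.21. Psme3 reversed to 0.06 in HFoleic (adjusted p = 0.754) and to 0.11 in HFepa (adjusted p = 0.636) when read from its other probe, an alternative chosen after the values were seen. Psma1 lost its call under 4 alternatives, Psma4 under 4 and Psma3 under 1, with the direction kept. Why scaling to a percentile lost these calls was not tested. Same-numbered mice of 2 groups did not deviate together (correlations −0.298 to 0.348, over 0.1 in 3 of 22 pairs), and with the replicate number as a block (replicate block) the counts were 6, 0 and 0. The median member difference in HFoleic against reference was 0.01 to 0.08 within slides and 0.04 in both rows, against 0.06 over all arrays. In HFepa against reference it was 0.11, −0.03 and 0.06 on slides 1, 2 and 3, against 0.04 over all arrays.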
